A study of Arabidopsis thaliana with 6 samples.

Results

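The genes described here encode proteins that plants make in cold, in drought or in the maturing seed. They are 7 genes, each read from a probe set named with that gene alone, out of 13513 probe sets named with 1 gene, and no filter on level was applied to them. The cold-type genes are COR15A (AT2G42540), COR15B (AT2G42530) and COR47 (AT1G20440). The LEA-type genes are LEA4-5 (AT5G06760), LEA18 (AT2G35300), AT3G17520 and AT4G21020. RNA came from shoots of Arabidopsis thaliana seedlings 10 days after germination, of which 3 arrays each carried RNA of the double mutant pvip1 pvip2 and of its wild type Col-0, a separate biological replicate on every array. Both genotypes grew on MS agar at 21 °C with 16 h of light, and the labels name no cold or drought treatment. Wild-type roots were taken off, and the mutants, whose hypocotyl is vestigial, were cut there so that they were wounded too. The mutant alleles are not given in the sources used here. PVIP genes, also known as OBERON genes, encode PHD-finger proteins of the nucleus that act in meristem formation.

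Late embryogenesis abundant (LEA) proteins are small, very hydrophilic and largely unfolded in solution, and they were first found in seeds as they dry. Many are also made in leaves during drought, salt stress or cold, often under the control of abscisic acid, and they protect membranes and enzymes when water is lost. COR15A and COR15B act in the chloroplast stroma, where they stabilise membranes during freezing, and their genes are classic targets of the CBF transcription factors of the cold response. COR47 is a dehydrin, a class of LEA protein found in the cytosol and nucleus. By sequence family COR15A and COR15B belong to the LEA_4 group, as do AT3G17520 and AT4G21020. The split into cold-type and LEA-type genes is therefore not one of family, and the cold-type genes encode LEA proteins too. LEA4-5 and LEA18 belong to the LEA_1 group.

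The cold-type genes were lower in the mutant shoots and the LEA-type genes were higher, each in the mean of the arrays. COR15B fell 5.63-fold and COR47 fell 2-fold, while LEA18 rose 2.14-fold and AT4G21020 rose 1.41-fold. COR15A stood 2.64-fold lower, and LEA4-5 and AT3G17520 stood 1.98-fold and 1.95-fold higher, without passing the test (limma, Benjamini-Hochberg adjusted p under 0.05 over 22746 probe sets). Thus 2 of 3 cold-type genes were called lower, beside 6.51% of all probe sets, and 2 of 4 LEA-type genes were called higher, beside 6.85%. The LEA-type genes called, LEA18 and AT4G21020, had mean signals of 3.69 and 2.62, under the 40th percentile of mean signal. With a filter at that percentile they were not tested, and 0 LEA-type genes were called higher. The 2 cold-type calls stayed. The groups did not overlap in 2 of 3 cold-type genes, all lower, beside 18.8% of all probe sets, and in 3 of 4 LEA-type genes, all higher, beside 13.4%. With the replicate number as a block in the fit, all 7 genes were called. The 3 cold-type ones were lower, beside 9.82% of all probe sets, and the 4 LEA-type ones higher, beside 9.39%. The sample titles state no such pairing. It was taken from correlations between arrays and is least certain for the arrays numbered 3. The median change was -1.40 on the log2 scale for the cold-type genes and 0.97 for the LEA-type genes, beside -0.05 over all probe sets. The genes were chosen with these directions known, so the counts describe them and do not test the choice.

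**Figure D1:**
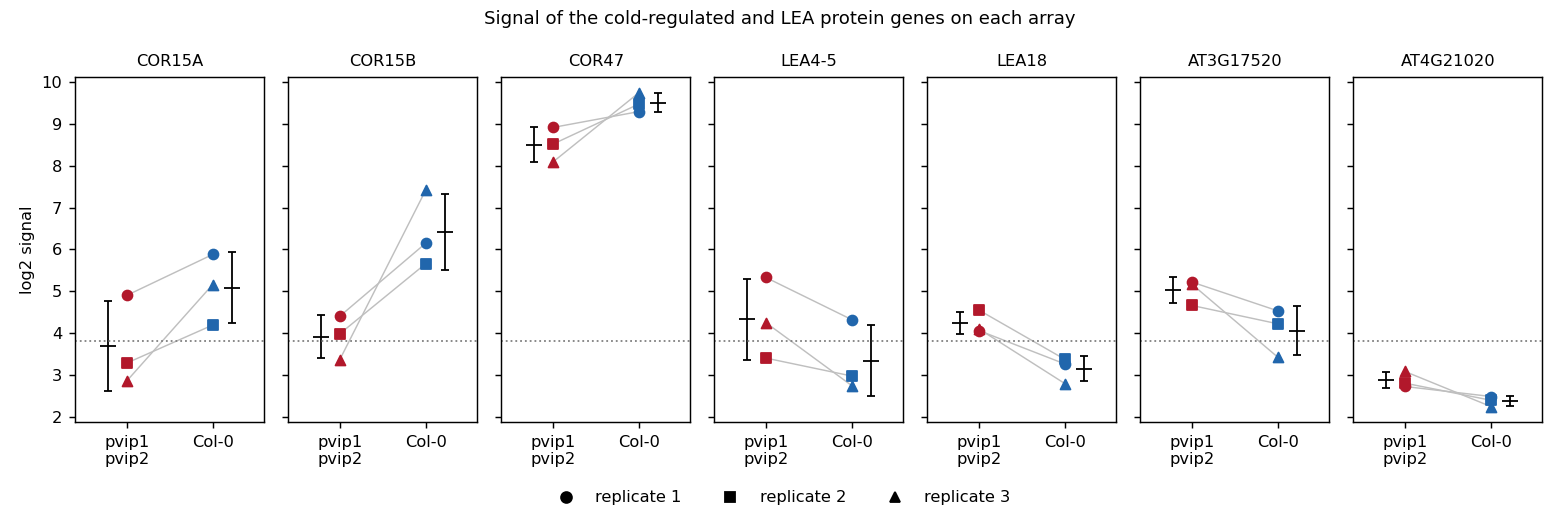
Deposited log2 signal (vertical axis) of each of the 7 genes on the 6 arrays. Red marks are the 3 pvip1 pvip2 arrays and blue marks the 3 Col-0 arrays. Grey lines join arrays of the same replicate number, black bars are the mean ± SD, and the dotted line at 3.81 is the 40th percentile of mean signal. All 3 lines climb towards Col-0 for COR15A, COR15B and COR47, and all 3 descend towards Col-0 for the other 4 genes.

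Some features of the whole data set bear on these values. The probe set of OBE1 (AT3G07780), which is one of the PVIP genes, gave 2.53 to 2.61 in the mutant arrays. In Col-0 it gave 5.08 and 5.17 for replicates 2 and 3 but 2.42 for the library labelled replicate 1, against what that label says. The array of Col-0 replicate 3 had a difference of 2.31 on the log2 scale between the 3′ and 5′ probe sets of GAPDH, a measure of RNA quality, against 0.55 to 1.08 on the other 5 arrays. Replicates 1 and 2 of both genotypes ran on fluidics station 1 and the arrays numbered 3 on station 2. Of 12 green tissue markers 6 were measured, and their summed linear signal was 17063 to 20692 in the mutant arrays and 22871 to 25656 in Col-0. All 6 stood lower in the mutant, 4 of them at an unadjusted p under 0.05 (limma), beside 15.2% of all probe sets. With the replicate block 2 were called lower, beside 9.82%. Of 10 root markers 3 were measured, with sums of 3505 to 3581 in the mutant and 1028 to 1092 in Col-0, of which nearly all came from PYK10, a beta-glucosidase abundant in roots. The log2 signal of PYK10 rose by 1.76 (SE 0.11, adjusted p = 9.249e-05), while the changes of the root hair genes EXPA7 and EXPA18 were 0.33 (adjusted p = 0.484) and 0.21 (adjusted p = 0.668). PORB, of chlorophyll synthesis, was the only green tissue marker called without the replicate block, at -1.13 (SE 0.18, adjusted p = 0.00523). The library labelled Col-0 replicate 1 gave 10.06 for PYK10, beside 10.01 and 9.98 in Col-0 replicates 2 and 3 and 11.76 to 11.80 in the mutant. For PORB it gave 11.08, beside 11.17 and 11.41 in Col-0 and 9.87 to 10.45 in the mutant. The identity of that library was not tested. No marker was at 0 on any array, and the part of tissue make-up in the results below was not tested. In RNA of whole shoots, fewer cells of a type and less RNA per cell cannot be told apart.

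COR15B had the largest change of the 7 genes. Its log2 signals were 4.40, 3.98 and 3.36 in the pvip1 pvip2 replicates 1, 2 and 3, and 6.15, 5.66 and 7.42 in Col-0. Every mutant array was lower than every Col-0 array, and the gap between the groups was 1.26 wide, from the highest mutant array to the lowest Col-0 array. The means were 3.91 ± 0.52 in the mutant and 6.41 ± 0.91 in Col-0 (SD, n = 3 each). The change was -2.49 (SE 0.45, 95% interval -3.52 to -1.47, adjusted p = 0.0084, limma). COR15B was called under all 15 alternatives tried, with adjusted p from 0.00663 to 0.0421. Its mutant signals lie close to the lower end of the scale, and with 64 added to the linear signal the change was -0.95 (adjusted p = 0.0421). On station 1 alone, that is without the arrays numbered 3, it was -1.71 (adjusted p = 0.0354).

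COR15A, the neighbouring gene and the better known of the pair, followed the same direction with more spread. Its log2 signals were 4.90, 3.28 and 2.85 in the mutant replicates 1, 2 and 3, and 5.88, 4.19 and 5.16 in Col-0. The groups overlapped through mutant replicate 1, which was higher than Col-0 replicate 2. The means were 3.68 ± 1.08 in the mutant and 5.08 ± 0.85 in Col-0 (SD, n = 3 each), and the change of -1.40 was not called (SE 0.57, 95% interval -2.70 to -0.11, adjusted p = 0.153). Both replicate 1 arrays were the highest of their genotype. In the fit with the replicate block the SE was 0.29 and the adjusted p 0.0136. Without mutant replicate 1 the change was -2.01 (adjusted p = 0.029), and without mutant replicate 3 it was -0.99 (adjusted p = 0.385). With 64 added to the linear signal it was -0.35.

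COR15B and COR15A lie next to each other in the TAIR10.1 gene table, and the sources used here do not say how far their probes tell the 2 transcripts apart. The difference COR15B minus COR15A within an array was -0.50, 0.70 and 0.51 in the mutant replicates and 0.26, 1.47 and 2.26 in the Col-0 replicates. The groups overlapped, but between arrays of the same number it was lower in the mutant each time, by -0.76, -0.77 and -1.75. COR15A was under 3.81 in mutant replicates 2 and 3 (3.28 and 2.85), and COR15B in mutant replicate 3 (3.36). Whether low signal shrank the difference in the mutant was not tested. The mean difference between genotypes was -1.09, with a two-sided exact permutation p of 0.3 that leaves the pairing out. As 0.1 is the smallest p that 3 against 3 arrays allow, that test could not settle whether the pair differed in the size of their change. Among the next genes on either side, AT2G42520 stood at 0.35 (SE 0.33, adjusted p = 0.565). AT2G42560, itself a gene of the LEA_4 group and 2 genes from COR15A, stood at -0.17 (SE 0.12, adjusted p = 0.427), and its signals were between 2.52 and 2.98 on all arrays. Over the 7 genes, 24 other genes lay within 2 genes on either side, 6 of these were measured, and limma called 0 of them, also with the replicate block, while 1, AT2G35310 beside LEA18, had an unadjusted p under 0.05 (a change of -0.36). Over all probe sets 6.51% were called lower and 6.85% higher, shares at which 6 genes need hold none.

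COR47, the dehydrin, gave signals far above the lower end of the scale on every array. They were 8.92, 8.52 and 8.09 in the mutant replicates 1, 2 and 3, and 9.30, 9.48 and 9.75 in Col-0. The groups did not overlap, and the order of the replicates was opposite in the 2 genotypes, with number 1 the highest in the mutant and the lowest in Col-0. The means were 8.51 ± 0.42 in the mutant and 9.51 ± 0.23 in Col-0 (SD, n = 3 each). COR47 changed by -1.0 (SE 0.23, 95% interval -1.52 to -0.48, adjusted p = 0.0222). With 64 added to the linear signal the change was -0.89 (adjusted p = 0.0275), a small shift, as 64 is small beside its linear signals. The call was lost on station 1 alone (-0.67, adjusted p = 0.156) and in fits that left out replicate 2 or 3 of either genotype (0.0607 to 0.0771).

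Among the other dehydrins, limma called 0 of 5 measured genes out of 9 listed, and 0 had an unadjusted p under 0.05. That count says little, since 6.51% of all probe sets were called lower and 6.85% higher. LTI30, a cold-induced dehydrin that binds membranes, gave 6.81, 5.76 and 4.20 in the mutant replicates and 5.69, 4.76 and 5.20 in Col-0. In both genotypes LTI30 was highest in replicate 1, the mutant arrays surrounded the Col-0 arrays, and the change was 0.37 (SE 0.57, adjusted p = 0.739). It was -0.23 without mutant replicate 1. HIRD11 (AT1G54410), a small histidine-rich dehydrin that binds metal ions, gave 8.0, 9.23 and 8.27 in the mutant and 7.38, 9.97 and 10.47 in Col-0. The library labelled Col-0 replicate 1 was the lowest of all 6 for HIRD11, and the change of -0.78 (SE 0.72, adjusted p = 0.554) became -1.73 (adjusted p = 0.0207) without it. It was -0.18 (adjusted p = 0.913) without Col-0 replicate 3 and -0.06 (adjusted p = 0.978) on station 1 alone. AT2G21490, AT4G38410 and AT4G39130 had changes of 0.27, -0.10 and -0.21 (adjusted p = 0.525, 0.706 and 0.362), and the last 2 were under 3.81 on every array. ERD10, the dehydrin gene next to COR47, has no probe set named with it alone and was not analysed here.

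**Figure D2:**
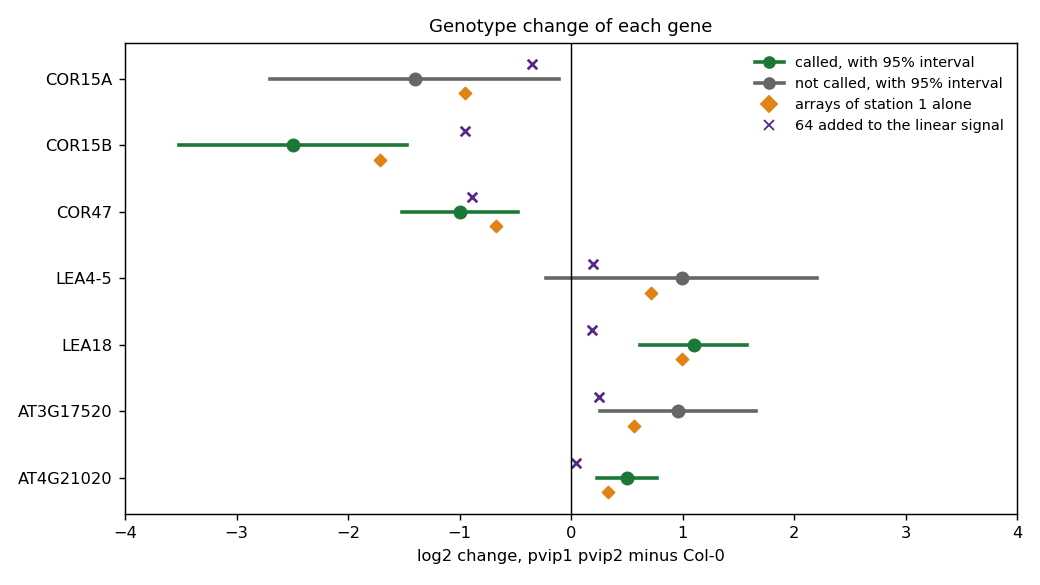
Log2 change between genotypes (horizontal axis, pvip1 pvip2 minus Col-0) of the 7 genes. Circles with bars are the estimates over 6 arrays with their 95% interval, green where called and grey where not; orange diamonds use the arrays of station 1 alone and purple crosses have 64 added to the linear signal. The estimates run from -2.49 for COR15B to 1.10 for LEA18. Among the crosses COR47 is the nearest to its circle in proportion, at -0.89 beside -1.0.

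LEA18, also known as LEA4-2, is a LEA_1 protein and gave the firmest rise among the LEA-type genes. Its log2 signals were 4.06, 4.55 and 4.1 in the mutant replicates 1, 2 and 3, and 3.26, 3.37 and 2.79 in Col-0. All mutant arrays were above the 40th percentile of 3.81, all Col-0 arrays were below it, and the mean over both genotypes did not pass that filter. The means were 4.24 ± 0.27 in the mutant and 3.14 ± 0.30 in Col-0 (SD, n = 3 each). The change was 1.10 (SE 0.21, 95% interval 0.62 to 1.58, adjusted p = 0.0111). LEA18 was called under 13 of 14 alternatives and not on station 1 alone (0.99, adjusted p = 0.09). With 64 added to the linear signal the change was 0.19 (adjusted p = 0.0141). Adding 64 shrinks any change at signals this low, and how the authors treated low signal is not known.

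LEA4-5, a LEA_1 protein that accumulates in vegetative tissue under water deficit, gave 5.33, 3.40 and 4.25 in the mutant replicates 1, 2 and 3. In Col-0 it gave 4.32, 2.97 and 2.74. Replicate 1 was the highest array in both genotypes, as for COR15A, and Col-0 replicate 1 lay above mutant replicates 2 and 3. The means were 4.33 ± 0.97 in the mutant and 3.34 ± 0.85 in Col-0 (SD, n = 3 each). The change of 0.99 was not called (SE 0.53, 95% interval -0.23 to 2.2, adjusted p = 0.282). In the fit with the replicate block the SE was 0.22 and the adjusted p 0.02. With 64 added to the linear signal the change was 0.20 (adjusted p = 0.339). The third LEA_1 gene, LEA4-1 (AT1G32560), gave 2.86, 2.80 and 3.92 in the mutant and 3.14, 2.59 and 2.43 in Col-0. Its change of 0.47 (SE 0.30, adjusted p = 0.371) came from mutant replicate 3, and on station 1 alone it was -0.03.

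AT3G17520, of the LEA_4 group, gave 5.22, 4.66 and 5.17 in the mutant replicates 1, 2 and 3, and 4.53, 4.22 and 3.42 in Col-0. The groups did not overlap, by a gap of 0.13. The means were 5.02 ± 0.31 in the mutant and 4.06 ± 0.58 in Col-0 (SD, n = 3 each). The change of 0.96 was not called (SE 0.31, 95% interval 0.26 to 1.66, adjusted p = 0.0761). In the fit with the replicate block the adjusted p was 0.0433. It was also called with array weights (0.0488) and when the library labelled Col-0 replicate 1 was left out (1.20, adjusted p = 0.0404). Without Col-0 replicate 3, the lowest array, the change was 0.64 (adjusted p = 0.174), and with 64 added to the linear signal it was 0.25 (adjusted p = 0.0737).

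AT4G21020, also of the LEA_4 group, stayed near the bottom of the scale in both genotypes. It gave 2.72, 2.80 and 3.08 in the mutant replicates 1, 2 and 3, and 2.48, 2.39 and 2.24 in Col-0. The groups did not overlap, but none of the 6 arrays reached 3.81, and the table carries no detection call. The means were 2.87 ± 0.19 in the mutant and 2.37 ± 0.12 in Col-0 (SD, n = 3 each), and the change was 0.50 (SE 0.12, 95% interval 0.23 to 0.77, adjusted p = 0.0255). With 64 added to the linear signal the change was 0.04 (adjusted p = 0.0398). The call was lost under 6 of 14 alternatives, among them station 1 alone (0.33, adjusted p = 0.174) and the fit without a variance trend (adjusted p = 0.0607).

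Set side by side, the cold-type and LEA-type genes differed in opposite directions between arrays of the same replicate number. All 9 differences of the cold-type genes were negative and all 12 of the LEA-type genes were positive. In the 5 genes whose groups did not overlap, these signs follow from that. The genes were also chosen with their directions known, so the signs describe them and add no support. COR15B differed by -1.75, -1.67 and -4.06 for the arrays numbered 1, 2 and 3. COR15A differed by -0.99, -0.91 and -2.31, and COR47 by -0.38, -0.96 and -1.66. For each of these cold-type genes the arrays numbered 3 lay farthest apart. LEA18 differed by 0.81, 1.18 and 1.31, and LEA4-5 by 1.02, 0.43 and 1.51. AT3G17520 differed by 0.69, 0.43 and 1.76, and AT4G21020 by 0.24, 0.42 and 0.84. Averaged over the genes, the differences of the cold-type genes were -1.04, -1.18 and -2.68, and those of the LEA-type genes were 0.69, 0.61 and 1.36.

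**Figure D3:**
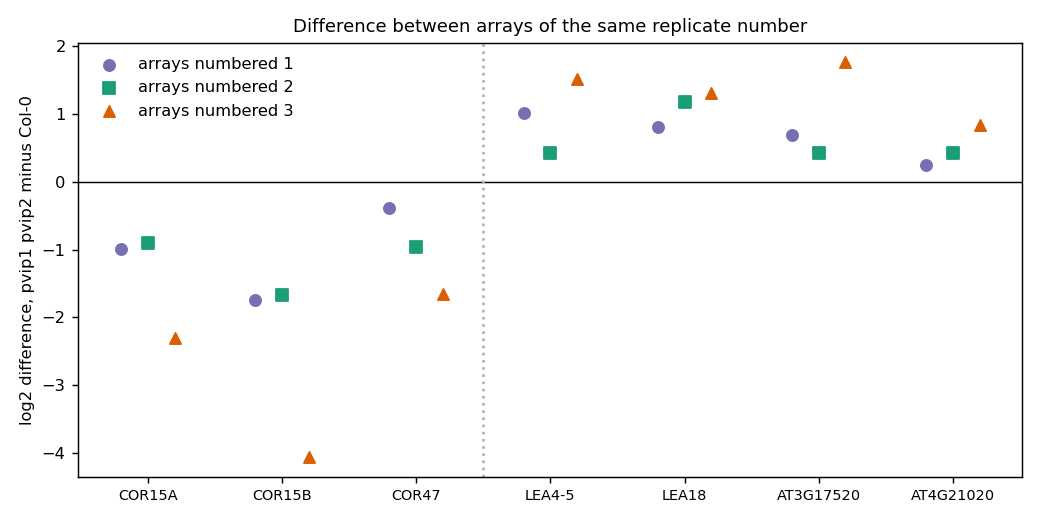
Log2 difference between the pvip1 pvip2 array and the Col-0 array of the same replicate number (vertical axis) for each of the 7 genes, with circles for number 1, squares for number 2 and triangles for number 3. All points left of the dotted line, the cold-type genes, are below 0 and all points right of it are above 0. The triangle is the farthest from 0 for all 7 genes, with -4.06 for COR15B as the extreme.

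The arrays numbered 3 gave the largest difference for all 7 genes, whereas over all 22746 probe sets they did so in 37.3% and over the 3040 called ones in 40.2%. In Col-0 replicate 3 the genes COR15B and COR47 were at their highest and all 4 LEA-type genes at their lowest of the Col-0 arrays. In mutant replicate 3 the genes COR15A, COR15B and COR47 were at their lowest of the mutant arrays, while among LEA-type genes only AT4G21020 was at its highest. Col-0 replicate 3 is also the array with the high GAPDH difference of 2.31, and its part in these values was not tested. Without Col-0 replicate 3 the changes were -1.36 for COR15A, -1.99 for COR15B and -0.88 for COR47. For LEA4-5, LEA18, AT3G17520 and AT4G21020 they were 0.68, 0.93, 0.64 and 0.43. Of the 7 genes COR15B and LEA18 were still called without it, with adjusted p values of 0.0135 and 0.0398. In that fit 1971 of the 22746 probe sets were called, against 3040 with all arrays. When the library labelled Col-0 replicate 1, whose OBE1 signal was low, was left out, 2 of the 7 genes were called lower, beside 5.88% of all probe sets in that fit, and 3 higher, beside 5.79%.

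Of 51 loci listed for the wider LEA and dehydrin family, 35 were measured, and 28 of these are not among the 7 genes. Of the 28, 2 were called higher and 0 lower (limma), beside 6.85% and 6.51% of all probe sets. At an unadjusted p under 0.05, 3 were higher and 2 lower, beside 11.9% and 15.2%. The groups did not overlap in 3 higher and 3 lower, beside 13.4% and 18.8%. These counts are close to what the shares over all probe sets would give, and the median change was -0.01, beside -0.05 over all. The signals of 16 of the 28 were under 3.81 on every array. Within the LEA_4 group, 11 genes beside the 4 described above were measured, 1 was called higher, and the changes ran from -0.40 to 1.36.

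The 2 further genes that rose were AT3G02480 and M17. AT3G02480, of the LEA_4 group, gave 6.73, 8.04 and 6.97 in the mutant replicates and 6.12, 5.76 and 5.77 in Col-0. All mutant arrays were higher, and the change was 1.36 (SE 0.33, adjusted p = 0.0277), or 1.45 (adjusted p = 0.145) on station 1 alone. The call was also lost with 64 added to the linear signal (0.83, adjusted p = 0.0556) and in fits that left out mutant replicate 3 or Col-0 replicate 2 or 3 (0.0527 to 0.0954). M17 (AT2G41260), a LEA protein of maturing seeds, gave 6.05, 6.96 and 4.22 in the mutant and 4.24, 2.93 and 3.04 in Col-0. Mutant replicate 3 lay just under Col-0 replicate 1, so the groups overlapped, and the change was 2.34 (SE 0.64, adjusted p = 0.0464). The call of M17 was lost in fits that left out mutant replicate 1 or 2 or Col-0 replicate 2 or 3 (0.111 to 0.146), without a variance trend (0.0762) and with 64 added to the linear signal (0.75, adjusted p = 0.107).

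A few genes were singled out after their values were seen. AT2G46140, of the LEA_2 group, gave 3.65, 3.92 and 3.15 in the mutant and 4.23, 4.36 and 4.24 in Col-0, a change of -0.70 (SE 0.21) that was not called (adjusted p = 0.0668). It was called with the replicate block (0.0377), with array weights (0.0427), with 64 added to the linear signal (0.0452) and without mutant replicate 2 (0.0466). The other alternatives did not call AT2G46140, among them station 1 alone (-0.51, adjusted p = 0.29) and the fit without mutant replicate 3 (-0.49, adjusted p = 0.193). Its signals in mutant replicates 1 and 3 were under 3.81. AT3G15670, of the LEA_4 group, gave 4.13, 3.70 and 6.26 in the mutant and 3.57, 3.69 and 3.01 in Col-0, so its change of 1.27 (SE 0.58, adjusted p = 0.203) came largely from mutant replicate 3. Of 13 seed or embryo markers 1 was measured, OLEO3, an oleosin of seed oil bodies. OLEO3 gave 5.02, 2.85 and 4.19 in the mutant and 2.90, 2.86 and 3.07 in Col-0, a change of 1.08 (SE 0.45, adjusted p = 0.169). Without mutant replicate 2 the change was 1.66 and called (adjusted p = 0.00758), and without mutant replicate 1 it was 0.58 (adjusted p = 0.352). Its linear signal ran from 7.21 to 32.4 in the mutant and from 7.28 to 8.41 in Col-0. The mutant arrays in which M17 was highest were replicates 1 and 2, while OLEO3 was highest in replicates 1 and 3, and the part of seed tissue in the LEA values was not tested.

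**Figure D4:**
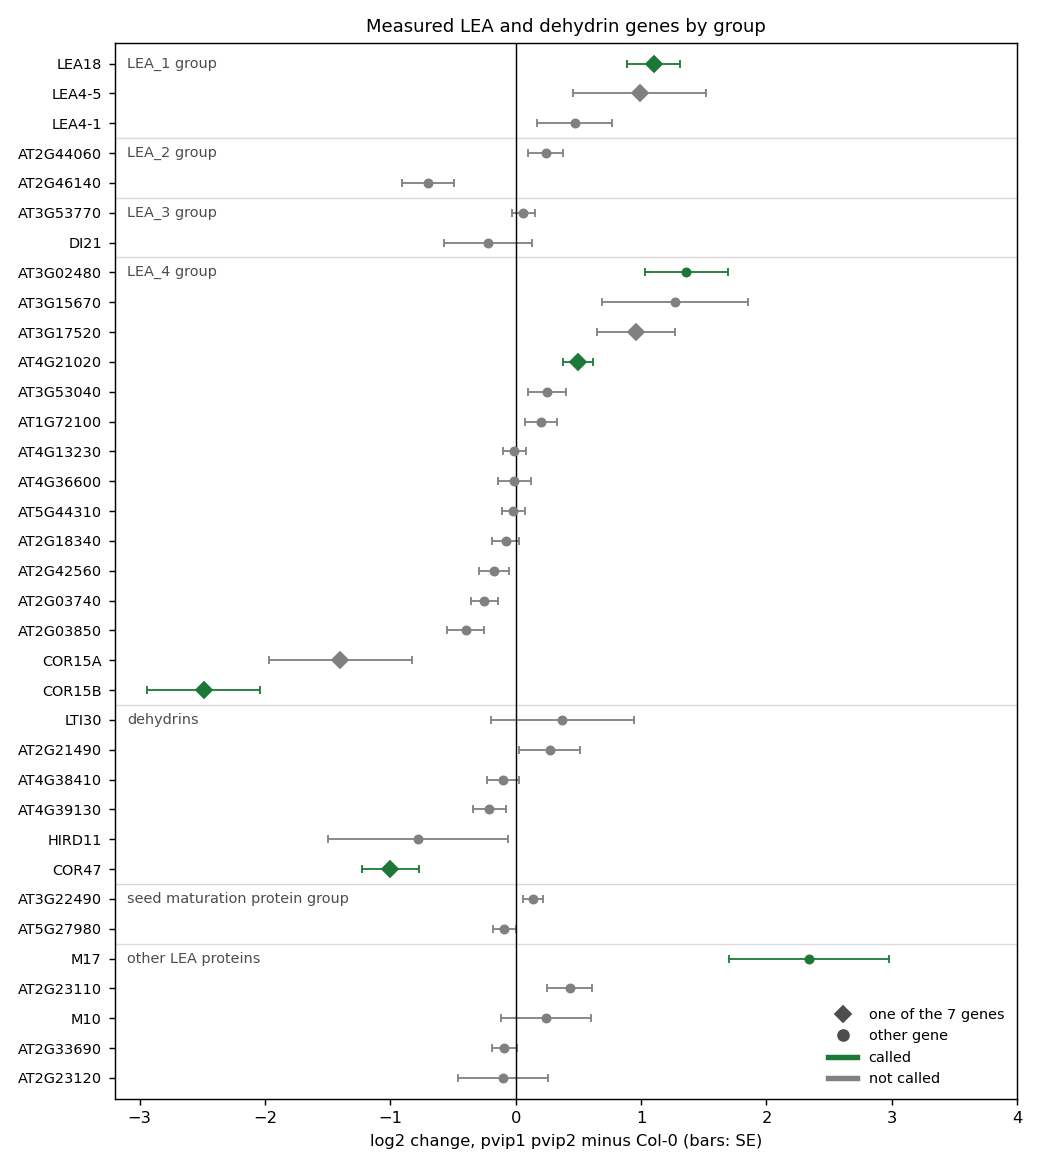
Log2 change between genotypes (horizontal axis, pvip1 pvip2 minus Col-0, bars are SE) of the 35 measured LEA and dehydrin genes, in order of change within each group. Diamonds are the 7 genes described in detail and circles the others; green marks passed the limma test and grey marks did not. COR15B at -2.49 and COR15A at -1.40 stand apart at the low end of the LEA_4 group, M17 at 2.34 is the highest of all, and many genes lie close to 0.

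Other genes of the cold response were little represented. Of 29 listed loci beyond the dehydrins and COR15 genes, 3 were measured, and limma called 0, with 0 at an unadjusted p under 0.05, too few to set against the 6.51% and 6.85% of all probe sets called lower and higher. COR27, a cold- and clock-regulated gene, gave 6.20, 6.89 and 7.37 in the mutant and 5.98, 7.48 and 7.55 in Col-0. The groups overlapped, the lowest array of each genotype was replicate 1, and the change was -0.18 (SE 0.45, adjusted p = 0.847). COR28 (AT4G33980), its relative, stood at -0.53 (SE 0.33, adjusted p = 0.356), and ran from -0.80 without Col-0 replicate 1 to -0.20 without Col-0 replicate 3. TIL1 (AT5G58070), a temperature-induced lipocalin of the plasma membrane, stood at -0.29 (SE 0.27, adjusted p = 0.549), and ran from -0.56 without mutant replicate 1 to -0.08 without mutant replicate 3. All 3 changes were negative and none passed the test, and that of COR27 was positive without mutant replicate 1 or Col-0 replicate 2 or 3.

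Of 15 regulators of the cold response only ZAT10 was measured, listed as STZ, a zinc-finger repressor induced by cold, salt and drought. It gave 7.27, 6.38 and 6.95 in the mutant and 6.79, 5.49 and 5.84 in Col-0, with replicate 1 the highest in both genotypes. The change of 0.82 was not called (SE 0.36, adjusted p = 0.181), but the adjusted p was 0.0162 with the replicate block. When the library labelled Col-0 replicate 1 was left out, the change was 1.20 (adjusted p = 0.0352), and without Col-0 replicate 2 it was 0.54 (adjusted p = 0.439). The CBF genes, RD29A, KIN1 and the 34 listed genes of abscisic acid and water deficit have no probe set named with them alone and were not analysed here.

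Likeness of pattern was measured as the root mean square (RMS) difference between log2 values over the 6 arrays, each gene centred on its own mean. Among the 7 genes, LEA18 and AT3G17520 were closest in pattern, as were LEA18 and AT4G21020, at 0.39 each, and COR15B and LEA4-5 were farthest apart, at 2.00. COR15A was closer to COR47 (0.71) than to its neighbour COR15B (0.88). This measure counts amplitude as well as shape, and COR15B varied by 1.39 (RMS) about its own mean, against 0.57 for COR47. Outside the 7 genes, the probe sets with 1 gene nearest to COR15A were AT1G18810, AT1G10640 and AT4G33660, at 0.24, 0.28 and 0.29. Those nearest to COR15B were AT4G15700, AT5G04080 and AT4G16000, at 0.43, 0.43 and 0.46. COR47 was nearest to AT2G28870, AT5G25590 and VPS2.2, at 0.12 to 0.14.

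LEA4-5 was nearest to AT1G30260, AT5G13400 and AT4G28290, at 0.21, 0.31 and 0.33. The genes nearest to LEA18 were AT3G60440, AT5G57480 and SDRB, at 0.12, 0.14 and 0.15. For AT3G17520 they were AT4G13180, AT5G01300 and AT3G18560, at 0.13 to 0.14, and for AT4G21020 they were AT1G72220, AT2G46620 and AT1G16180, at 0.03 to 0.05. A gene that varies little lies close to many others by this measure: AT4G21020 varied by 0.28 (RMS) about its own mean, against 1.39 for COR15B and 1.06 for COR15A.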

How the data were processed

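The deposited table holds a log2 signal for 22810 probe sets on each of 6 single-colour ATH1 arrays, but the authors' summary method, background correction and scaling are not stated in the sources used here, beyond the name GCOS in the submitters' processing notes. Base 2 was inferred, since another base would exceed a scanner's range. The scanner setting files, deposited as text with other kinds of value, gave the fluidics station. All 64 control probe sets were left out. Platform annotation and the TAIR10.1 gene table named 13513 probe sets with 1 gene, and 503 have several genes and 8730 are unnamed here. The comparison of genotypes used limma 3.58.1 under R 4.3.3 (lmFit, then eBayes with a trend, two-sided, Benjamini-Hochberg over 22746 probe sets), without a level filter. The fit without a block was tested on simulated data with independent noise on each array, which held no replicate pairing and no station effect. Precision is limited by the number of arrays, with a median SE of 0.18, and p values reflect the spread between samples labelled biological replicates.

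The 7 genes and the gene lists were chosen with earlier results of these data known. Named genes are the 7, the called list genes with the largest change (up to 4 a list), all measured LEA_1, dehydrin and cold genes, and for each of the 7 the 3 nearest in pattern. AT2G46140, AT3G15670 and OLEO3 were added afterwards, as were the alternatives for genes other than the 7. Deviations from the genotype mean correlated between same-numbered arrays at r = 0.539, 0.311 and 0.121 across probe sets, each over 0.1, so the replicate numbers of the labels were taken as pairs and used as a block in an alternative fit. The third pair is the least certain, since mutant replicate 2 and Col-0 replicate 3 correlated at 0.228. The correlations are not independent of each other, as deviations are taken from the mean of each genotype. Other alternatives were a filter at the 40th percentile (3.81), array weights, no variance trend, equal medians, quantile normalization, 64 added to the linear signal, the station as a block or station 1 alone, and leaving out each array.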

Additional observations from a re-analysis of the deposited data

How the results depend on the processing

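Every change of the 7 genes kept its direction under every alternative tried, and COR15B also kept its call. With the replicate block COR15A (-1.40), LEA4-5 (0.99) and AT3G17520 (0.96) became called, as in the paired analysis given beside their values, and the block changed no other call of the 7. AT3G17520 was also called with array weights (0.96). AT4G21020 was not called without a variance trend (0.50), and COR47 (-0.67), LEA18 (0.99) and AT4G21020 (0.33) were not called on station 1 alone, which has fewer arrays. Filtered at the 40th percentile, LEA18 and AT4G21020 were not tested. Leaving out 1 array at a time, changes ran from -2.01 to -0.99 for COR15A, -2.87 to -1.99 for COR15B, -1.21 to -0.79 for COR47, 0.48 to 1.47 for LEA4-5, 0.93 to 1.21 for LEA18, 0.64 to 1.20 for AT3G17520 and 0.39 to 0.57 for AT4G21020. The count of called probe sets, 3040, was 946 on station 1 alone and 1773 to 2800 with 1 array left out. With the replicate block it was 4369.

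Directions that turned were all of uncalled genes, and the cause was not tested. On station 1 alone LEA4-1 stood at -0.03 and AT2G21490 at -0.08. With 1 array left out, LTI30 ran from -0.23 (without pvip1 pvip2 replicate 1) to 1.07, AT2G21490 from -0.02 (without pvip1 pvip2 replicate 3) to 0.44, AT4G38410 from -0.18 to 0.01 (without pvip1 pvip2 replicate 3) and COR27 from -0.69 to 0.13 (0.13, 0.06 and 0.09 without pvip1 pvip2 replicate 1, Col-0 replicate 2 or Col-0 replicate 3). With 64 added to the linear signal, the changes of the 7 genes other than COR47 ran from -0.95 for COR15B to 0.25 for AT3G17520. That of COR47 was -0.89. Adding 64 shrinks any change at low signal, and whether low signal limited the size of these changes was not tested.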
